A study of Mus musculus with 17 samples.

Results

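CC chemokine ligands are small secreted proteins, named for a pair of adjacent cysteines, that draw leukocytes toward their source through G protein-coupled receptors on the responding cells. In mice, CCL2, CCL7 and CCL12 are the monocyte chemotactic proteins that act on CCR2, CCL3, CCL4 and CCL5 are inflammatory ligands that attract monocytes and T cells, and CCL6 and CCL9 act on CCR1. CCL22 binds CCR4, a receptor of T helper type 2 and regulatory T cells, and CCL24, also called eotaxin-2, binds CCR3 on eosinophils. Inflamed macrophages are a known source of many of these proteins, and several of their genes are textbook targets of NF-κB, the transcription factor that the kinase IKKβ releases from its inhibitor.

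The transcripts of 10 ligands, Ccl2, Ccl3, Ccl4, Ccl5, Ccl6, Ccl7, Ccl9, Ccl12, Ccl22 and Ccl24, were examined in RNA-Seq of mouse peritoneal macrophages (PMs). They were taken by gene symbol from the 21683 rows of the table, and all 10 were among the 10451 rows that reached 1 TPM in at least 5 libraries and were tested. TPM is an abundance relative to all transcripts of a library, scaled for transcript length, so levels of different genes can be set side by side.

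There were 17 libraries in 3 groups, all from C57BL/6 mice. PMs of IKKβF/F mice, whose Ikbkb gene is flanked by loxP sites but which carry no Cre, were given PBS (F/F PBS, n = 6) or 100 nM of recombinant HIV protein Tat (F/F Tat, n = 6). PMs of IKKβΔMye mice, which have the same floxed gene and a heterozygous LysM-Cre knock-in that deletes IKKβ in myeloid cells, were given 100 nM Tat (ΔMye Tat, n = 5). The mice were 8 weeks old and received 1 mL of 3% thioglycollate, and the labels place collection 3 days later while the study's methods place it 1 day after that. The cells attached for 4 h and were then treated for 12 h. The Tat was made in bacteria and cleared of endotoxin, as the methods describe. Each library was a biological replicate from a mouse according to the study. ΔMye PMs given PBS were not analysed here, so a difference between the Tat groups cannot be told apart from one present before Tat.

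Ikbkb, which encodes IKKβ, averaged 26.8 and 23.2 TPM in the F/F groups with PBS and with Tat and 16.4 TPM in ΔMye Tat, and was lower in ΔMye Tat than in F/F Tat by 0.51 on the log2 scale (SE 0.08, adjusted p = 4.51e-05, limma). A TPM over a whole gene of which Cre removes a part is a weak check of the labels. All 7 macrophage markers averaged at least 1 TPM in every group, and their summed TPM was 25603 to 26604 in F/F PBS, 9432 to 10073 in F/F Tat and 7004 to 7323 in ΔMye Tat. Most of that sum was Lyz2, the gene that carries the Cre, and the other markers did not all follow it. In F/F PBS, F/F Tat and ΔMye Tat, Adgre1 averaged 499, 441 and 512 TPM, Fcgr1 113, 300 and 164 TPM and Mertk 15.4, 20.1 and 24.3 TPM. Csf1r (381, 64.0 and 104 TPM), Cd68 (2596, 1744 and 1886 TPM) and Itgam (178, 106 and 116 TPM) averaged less in both Tat groups than in F/F PBS. Read depth cannot be recovered from TPM, and the values of a library's listed rows summed to between 889318 and 903576. In RNA of a whole culture, fewer cells of a type and less RNA per cell cannot be told apart.

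Of the 10 genes, 8 lie in 2 groups on chromosome 11 (GRCm38 positions, GENCODE M21). Ccl2 (chr11:82035571-82037453, plus strand), Ccl7 (chr11:82045712-82047525, plus) and Ccl12 (chr11:82101845-82103400, plus) span 67.8 kb. Some 1422 kb further on, Ccl5 (chr11:83525778-83530518, minus), Ccl9 (chr11:83572919-83578636, minus), Ccl6 (chr11:83587882-83593087, minus), Ccl3 (chr11:83647844-83649355, minus) and Ccl4 (chr11:83662584-83664683, plus) span 138.9 kb. Ccl22 (chr8:94745590-94751699, plus) and Ccl24 (chr5:135569937-135573049, minus) lie apart from them. All 10 are annotated as protein-coding, with up to 3 exons in Ccl2, Ccl7, Ccl12, Ccl3, Ccl4 and Ccl5 and up to 4 in Ccl6, Ccl9, Ccl22 and Ccl24. No 31-base stretch of the transcripts of any of the 10 occurred in another CC ligand. Stretches shared with other genes made up 3.98% of Ccl9, 1.02% of Ccl6, 0.539% of Ccl5 and 0.0775% of Ccl24, and 0% of the other 6.

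Promoter sequence was matched by symbol in RefSeq (GRCm38.p6) for 5 of the 10, namely Ccl3, Ccl6, Ccl9, Ccl12 and Ccl22. It was read as the 250 bases before the RefSeq start, which can differ from the GENCODE start. The Ccl22 window (chr8:94745434-94745683) runs into the GENCODE gene, and the Ccl3 window stops short of it. The NF-κB consensus (GGGRNNYYCC, with R for A or G, Y for C or T and N for any base) was searched on both strands. The TATA box (TATAAA) was searched on the strand of the gene. Those of Ccl12, Ccl3 and Ccl9 are printed, because with IKKβ deleted the first pair were lower and Ccl9 was higher under Tat. The sequences run 5′ to 3′ on the strand of the gene (chr11:82101595-82101844 plus for Ccl12, chr11:83649379-83649628 minus for Ccl3, chr11:83578637-83578886 minus for Ccl9), with capitals marking the matches.
Ccl12: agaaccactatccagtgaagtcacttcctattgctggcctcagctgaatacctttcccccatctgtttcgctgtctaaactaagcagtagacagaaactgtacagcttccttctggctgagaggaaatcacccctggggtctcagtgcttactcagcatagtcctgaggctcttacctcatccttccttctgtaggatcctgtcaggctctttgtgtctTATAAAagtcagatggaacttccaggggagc
Ccl3: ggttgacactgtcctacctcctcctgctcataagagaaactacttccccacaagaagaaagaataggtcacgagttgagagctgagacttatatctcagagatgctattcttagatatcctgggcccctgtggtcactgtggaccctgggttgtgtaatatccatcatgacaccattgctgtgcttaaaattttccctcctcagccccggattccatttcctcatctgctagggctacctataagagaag
Ccl9: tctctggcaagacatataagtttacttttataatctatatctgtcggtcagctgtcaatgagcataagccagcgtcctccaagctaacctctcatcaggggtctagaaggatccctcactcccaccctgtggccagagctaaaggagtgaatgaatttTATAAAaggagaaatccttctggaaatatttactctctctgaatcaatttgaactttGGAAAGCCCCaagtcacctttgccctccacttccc
In Ccl9, the letters GGAAAGCCCC, 35 to 26 bases before the start, match the consensus when read on the opposite strand, and a TATAAA stands 92 to 87 bases before the start. In Ccl12, a TATAAA stands 31 to 26 bases before the start. The Ccl3, Ccl6 and Ccl22 windows held neither set of letters. Among all 32851 RefSeq promoter windows searched in the same way, 7.25% held the NF-κB consensus and 7.59% held TATAAA. The 2 motifs did not overlap in Ccl9.

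Tat was compared with PBS in IKKβF/F PMs to find how far each ligand's transcript moved with Tat. With Tat, 8 of the 10 ligands rose more than 3-fold and Ccl6 fell, while Ccl24 did not pass the test. A call by limma needed more than 3-fold and an adjusted p below 0.01 among all tested genes, a bar that 5.21% of tested genes met as higher and 19.4% as lower. By adjusted p alone, the counts were again 8 higher, 1 lower and 1 neither, where 17% of tested genes were higher and 67.6% lower. The libraries of the groups did not overlap for 9 of the 10, against 15.3% of tested genes higher and 62.4% lower without overlap. The median log2 difference was 5.02 over the 10 ligands and -0.65 over all tested genes. Because the deposited values are not scaled between libraries, each comparison was also fitted after median-ratio scaling, which brought the median of all tested genes to -0.03 and that of the ligands to 5.64. After scaling, 8 ligands were called higher and 0 lower, against 8.51% and 9.76% of tested genes.

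**Figure D1:**
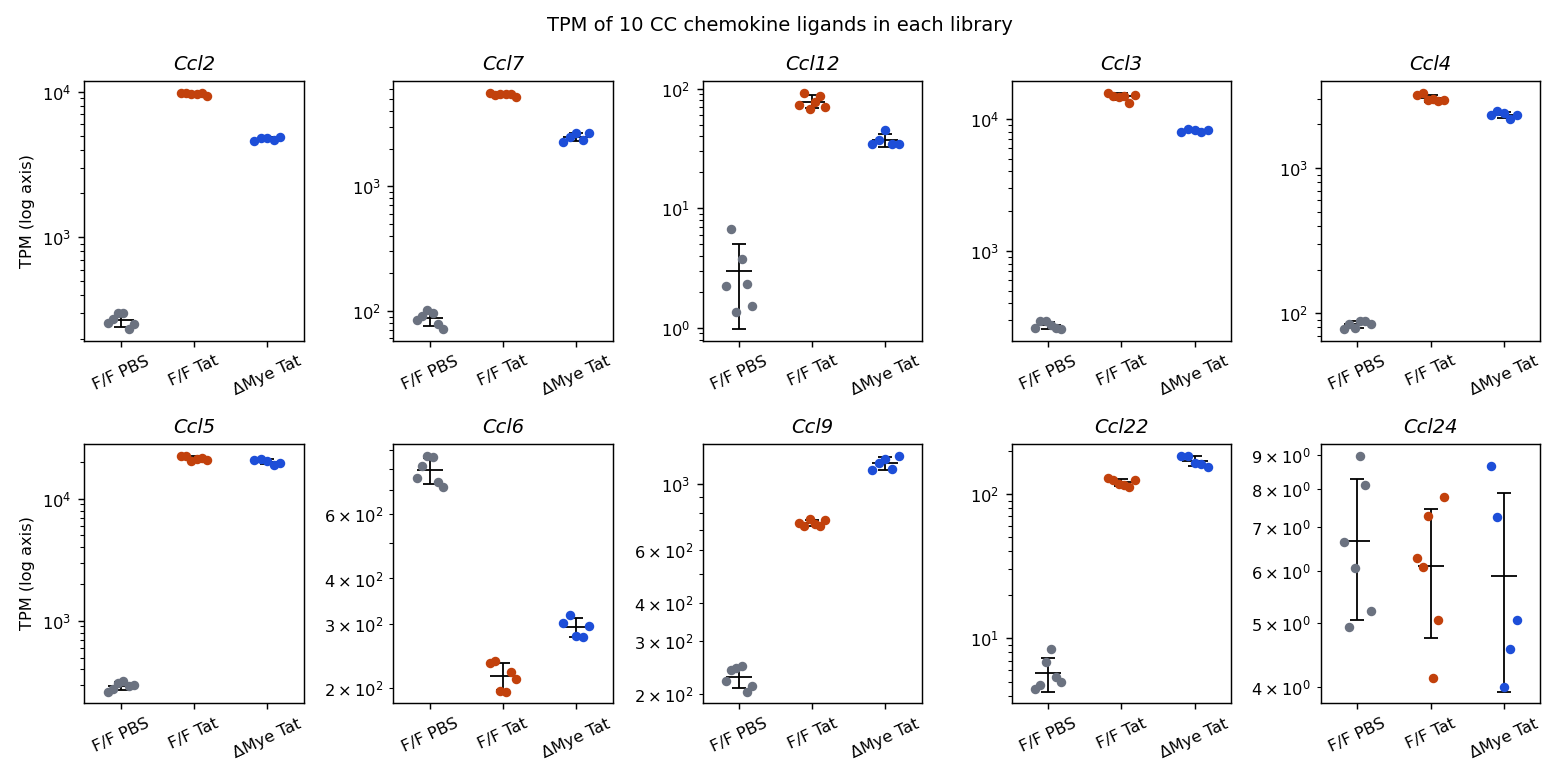
TPM of each of the 10 ligands (log axes, each panel with its own range) by group, with a point per library, a horizontal bar at the mean and error bars of 1 SD. In 8 panels the Tat libraries sit above every F/F PBS library, in that of Ccl6 they sit below, and in that of Ccl24, whose axis covers a narrow range, the 3 groups overlap.

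Among the CCR2 ligands, Ccl2, also known as MCP-1, ranged over 234.5, 266.1 and 300.1 TPM (lowest, median, highest) in F/F PBS and over 9383, 9722 and 9833 TPM in F/F Tat. Its mean rose from 269.7 ± 26.4 to 9673 ± 163 TPM (SD, n = 6 each), which is 35.9-fold and a log2 difference of 5.17 (SE 0.05, adjusted p = 6.54e-25, limma). The F/F Tat libraries lay within a coefficient of variation of 1.69%. Ccl7, or MCP-3, ranged over 71.6, 87.6 and 101 TPM in F/F PBS and 5165, 5427 and 5596 TPM in F/F Tat, a 62.1-fold rise (log2 difference 5.97, SE 0.07, adjusted p = 1.24e-23, limma). Both genes were thus separated from F/F PBS by far more than the spread within either group. Ccl12, or MCP-5, was scarce without Tat, at 1.36, 2.30 and 6.69 TPM, and reached 68.1, 75.7 and 92.4 TPM with it. Its log2 difference was 4.87 (SE 0.26, adjusted p = 8.31e-13, limma), with a wider error than for Ccl2 and Ccl7. The F/F PBS libraries of Ccl12 spread with a coefficient of variation of 67.1%, which is the basis of that error.

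Among the inflammatory ligands of monocytes and T cells, Ccl5, or RANTES, ranged over 263.5, 293 and 323 TPM in F/F PBS and 20343, 21359 and 22555 TPM in F/F Tat. This 73.0-fold rise was the largest among the 10 (log2 difference 6.19, SE 0.04, adjusted p = 2.07e-26, limma). Ccl3, or MIP-1α, rose 54.1-fold, from 256.3, 268.4 and 295.1 TPM to 13248, 14990.2 and 15768 TPM (log2 difference 5.76, SE 0.04, adjusted p = 2.07e-26, limma). Ccl4, or MIP-1β, rose 36.1-fold, from 78.1, 84.6 and 88.8 TPM to 2879, 2965 and 3297 TPM (log2 difference 5.17, SE 0.04, adjusted p = 6.70e-26, limma). For all 3, the libraries of F/F Tat lay above those of F/F PBS.

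Ccl6 and Ccl9 moved in opposite directions. Ccl6, which resting myeloid cells are known to express, was at 713.4, 785.2 and 871 TPM in F/F PBS and at 195.5, 216.6 and 237.6 TPM in F/F Tat. The F/F Tat mean was 27.3% of the F/F PBS mean (log2 difference -1.87, SE 0.06, adjusted p = 2.00e-16, limma), with no overlap. After median-ratio scaling the log2 difference of Ccl6 was -1.24 (adjusted p = 5.99e-13, limma), which is less than 3-fold, and the adjusted p ranged from 4.52e-17 to 0.00279 over the alternatives that kept all libraries. Ccl9, or MIP-1γ, rose 3.25-fold, from 203.2, 230.0 and 247.6 TPM to 722.8, 737.7 and 759.7 TPM (log2 difference 1.70, SE 0.04, adjusted p = 8.96e-18, limma). Ccl9 and Ccl6 are neighbours on the same strand, and their groups did not overlap in either case.

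Ccl22, the CCR4 ligand, ranged over 4.49, 5.17 and 8.40 TPM in F/F PBS and 112.7, 120.7 and 128.9 TPM in F/F Tat, a 20.8-fold rise (log2 difference 4.39, SE 0.11, adjusted p = 7.82e-18, limma). The highest F/F PBS values of Ccl22, 6.83 and 8.40 TPM, came from libraries 3 and 4, which also had the highest summed B cell markers (25.4 and 24.2 TPM, the other F/F PBS libraries between 12.1 and 18.6). The same libraries were highest in summed T cell markers (6.69 and 7.85 TPM, the others between 3.20 and 5.11). They were also highest in summed dendritic cell markers (14.9 and 14.4 TPM, the others between 6.73 and 8.69). Most of the dendritic cell sum in libraries 3 and 4 was a single gene, Ccr7, at 13.7 and 13.2 TPM. Without these libraries the call of Ccl22 stood. Ccl24, the CCR3 ligand, was at 4.93, 6.36 and 8.99 TPM in F/F PBS and 4.12, 6.19 and 7.77 TPM in F/F Tat, with overlapping groups. Its log2 difference was -0.12 (95% interval -0.53 to 0.29, adjusted p = 0.553, limma) on the deposited values and 0.50 (adjusted p = 0.0212) after scaling, so its sign depended on the scaling.

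**Figure D2:**
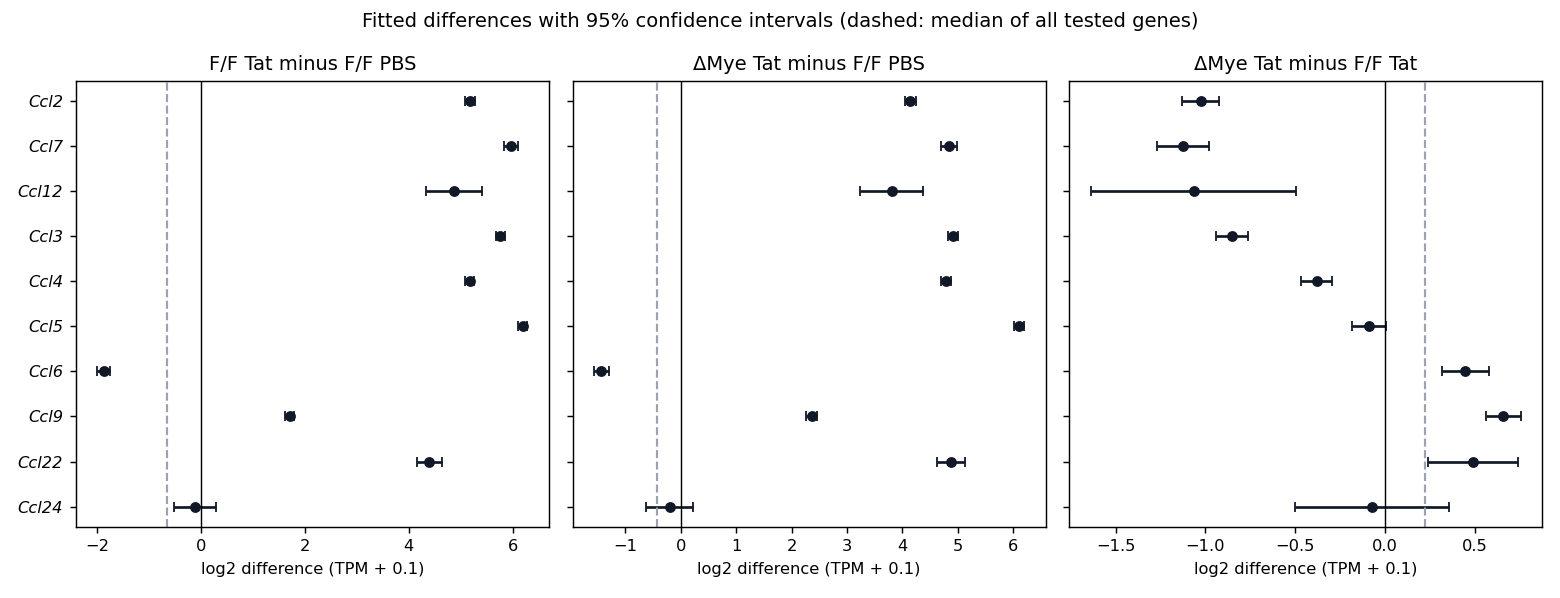
Log2 differences of log2(TPM + 0.1) between group means from limma for the 10 ligands, with 95% confidence intervals as bars, in F/F Tat minus F/F PBS, ΔMye Tat minus F/F PBS and ΔMye Tat minus F/F Tat, where the dashed line marks the median of all tested genes. In the last panel, Ccl2, Ccl7, Ccl12, Ccl3 and Ccl4 lie below 0, Ccl6, Ccl9 and Ccl22 lie above 0, and the intervals of Ccl5 and Ccl24 cross 0.

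The Tat groups of either genotype were compared to find which of these levels differed where myeloid IKKβ was deleted. Under Tat, Ccl2, Ccl7, Ccl12, Ccl3 and Ccl4 were lower in ΔMye PMs than in F/F PMs, and Ccl6, Ccl9 and Ccl22 were higher. Ccl5 and Ccl24 did not pass the test. None of the 10 passed the fold threshold (0 higher and 0 lower, against 0.44% and 0.316% of tested genes). By adjusted p alone, 5 were lower and 3 higher, where 8.87% of tested genes were lower and 38.8% higher. For 8 of the 10 the libraries did not overlap, against 8.01% of tested genes lower and 28.6% higher without overlap. The median log2 difference was -0.24 over the ligands and 0.22 over all tested genes, and -0.45 and 0.01 after median-ratio scaling, which gave 6 lower and 2 higher, against 18.8% and 16.4% of tested genes.

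The CCR2 ligands were lowest relative to F/F Tat, at 45.9% to 49.1% of it. Ccl2 was at 4574, 4834, 4796, 4684 and 4874 TPM in the ΔMye Tat libraries, each below the lowest F/F Tat library at 9383 TPM. The mean of 4752 ± 122 TPM (SD, n = 5) was 49.1% of that in F/F Tat (log2 difference -1.03, SE 0.05, adjusted p = 2.95e-12, limma). Ccl7 was at 2254, 2464, 2680.1, 2361 and 2680.2 TPM, or 45.9% of F/F Tat (log2 difference -1.13, SE 0.07, adjusted p = 1.09e-10, limma). Ccl12 was at 34.6, 37.4, 45.5, 34.4 and 34.5 TPM, or 47.7% of F/F Tat (log2 difference -1.07, SE 0.27, adjusted p = 0.00247, limma). All 3 stayed above every F/F PBS library, and the ΔMye Tat groups of the 3 lay wholly under F/F Tat. With no filter on low values, Ccl12 did not pass (adjusted p = 0.0149, limma, the highest of a range from 3.67e-07 over the alternatives that kept all libraries).

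Ccl3, Ccl4 and Ccl5 differed from each other. Ccl3 was at 8004, 8432, 8292, 7956 and 8251 TPM in ΔMye Tat, or 55.3% of F/F Tat (log2 difference -0.85, SE 0.04, adjusted p = 6.30e-12, limma). Ccl4 was at 2305, 2455, 2387, 2183 and 2307 TPM, or 76.7% (log2 difference -0.38, SE 0.04, adjusted p = 3.48e-07, limma). The ΔMye Tat libraries of both lay below all of those of F/F Tat. Ccl5 was at 20596, 21155, 20325, 18990.3 and 19478 TPM in ΔMye Tat, against 20343 to 22555 TPM in F/F Tat, so the groups overlapped. Its mean was 93.9% of that in F/F Tat (log2 difference -0.09, 95% interval -0.18 to 0.0038, adjusted p = 0.0901, limma). After median-ratio scaling the log2 difference of Ccl5 was -0.30 (adjusted p = 1.32e-04, limma), and over the alternatives that kept all libraries the adjusted p ran from 2.03e-09 to 0.262. T cells are another known source of CCL5, and of 5 T cell markers none averaged 1 TPM in F/F Tat while 5 did in ΔMye Tat. Their summed level was 3.20 to 7.85 TPM in F/F PBS, 1.82 to 2.95 TPM in F/F Tat and 6.78 to 9.17 TPM in ΔMye Tat, with none of the 5 at 0 on average in any group. The part of these markers in the level of Ccl5 was not tested.

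Ccl6 and Ccl9 were both higher in ΔMye Tat, as were 38.8% of tested genes by adjusted p, although Tat had moved them in opposite directions. Ccl6 was at 302.4, 316.9, 277.3, 277.0 and 296.6 TPM, or 136% of F/F Tat (log2 difference 0.45, SE 0.06, adjusted p = 6.16e-06, limma). Ccl9 was at 1110.1, 1169, 1209, 1116 and 1239.9 TPM, or 158% (log2 difference 0.66, SE 0.05, adjusted p = 8.21e-10, limma). Neither overlapped with F/F Tat, and after scaling both were still higher, by 0.23 (adjusted p = 0.00692) for Ccl6 and 0.45 (adjusted p = 1.14e-05) for Ccl9 in limma. For Ccl6 the ΔMye Tat level therefore lay between those of the F/F groups, and for Ccl9 it lay beyond F/F Tat on the side away from F/F PBS.

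Ccl22 was at 183, 184.7, 163.2, 162.4 and 155.1 TPM in ΔMye Tat, all above the highest F/F Tat library at 128.9 TPM, and its mean was 140.4% of that in F/F Tat (log2 difference 0.49, SE 0.12, adjusted p = 0.00173, limma). After median-ratio scaling the log2 difference was 0.27 (adjusted p = 0.0716, limma), which did not pass, and the range over the alternatives that kept all libraries was 3.60e-06 to 0.0716. Dendritic cells are a known source of CCL22. The summed level of 4 dendritic cell markers was 6.73 to 14.9 TPM in F/F PBS, 41.3 to 46.1 TPM in F/F Tat and 22.4 to 26.8 TPM in ΔMye Tat, of which only Ccr7 averaged at least 1 TPM in any group. Xcr1, one of the 4, averaged under 0.1 TPM in F/F PBS. Between the Tat groups these markers were ordered in the reverse of Ccl22. Within each group, the libraries highest in the marker sum, which was mostly Ccr7, were also those highest in Ccl22. They were F/F PBS libraries 3 and 4, F/F Tat libraries 7, 8 and 12, and ΔMye Tat libraries 19 and 20. How many libraries to name in a group was not set in advance. The order of the libraries did not match throughout. In F/F Tat, the marker sum was highest in library 12 and lowest in library 9, and Ccl22 was highest in library 7 and lowest in library 11. The part of these markers in the level of Ccl22 was not tested. Ccl24 was at 8.65, 7.26, 4.00, 4.56 and 5.06 TPM and overlapped with F/F Tat (log2 difference -0.07, 95% interval -0.50 to 0.35, adjusted p = 0.764, limma).

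Against F/F PBS, ΔMye Tat PMs had 8 of the 10 ligands called higher and 0 called lower, where 4.38% of tested genes were called higher and 11.1% lower. By adjusted p alone, 8 were higher and 1 lower, where 17.5% of tested genes were higher and 58.8% lower. This comparison shares the F/F PBS libraries with that of F/F Tat. It sets groups apart by genotype as well as by Tat, and the parts of these cannot be told apart. The values of both comparisons are given side by side. The log2 difference from F/F PBS was 4.14 for Ccl2 in ΔMye Tat and 5.17 in F/F Tat. It was 4.84 and 5.97 for Ccl7, 3.80 and 4.87 for Ccl12, 4.91 and 5.76 for Ccl3, 4.79 and 5.17 for Ccl4, and 6.10 and 6.19 for Ccl5. It was 2.36 and 1.70 for Ccl9, 4.88 and 4.39 for Ccl22, -1.43 and -1.87 for Ccl6, and -0.20 and -0.12 for Ccl24. Ccl6 in ΔMye Tat was 37.1% of F/F PBS and passed the adjusted p (6.02e-14, limma) but not the fold threshold.

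The position of a gene within the chromosome 11 groups can be read against its differences. In the Ccl2 group, Ccl2, Ccl7 and Ccl12 had log2 differences from -1.13 to -1.03 between the Tat groups. Ccl8, a ligand outside the 10 that lies 79.6 kb from Ccl2 beside Ccl12, was instead at 27.8, 35.0 and 42.2 TPM on average in the 3 groups. Its log2 difference was 0.33 with Tat (adjusted p = 3.13e-04, limma, and 0.96 with 3.80e-10 after median-ratio scaling) and 0.27 between the Tat groups (adjusted p = 0.00513, and 0.581 after median-ratio scaling). In the second group, Ccl9 and Ccl6 were higher in ΔMye Tat and Ccl3 and Ccl4 were lower. Ccl5, at the end nearest to Ccl2, did not pass on the deposited values. After median-ratio scaling Ccl5 passed as lower (-0.30, adjusted p = 1.32e-04, limma).

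**Figure D3:**
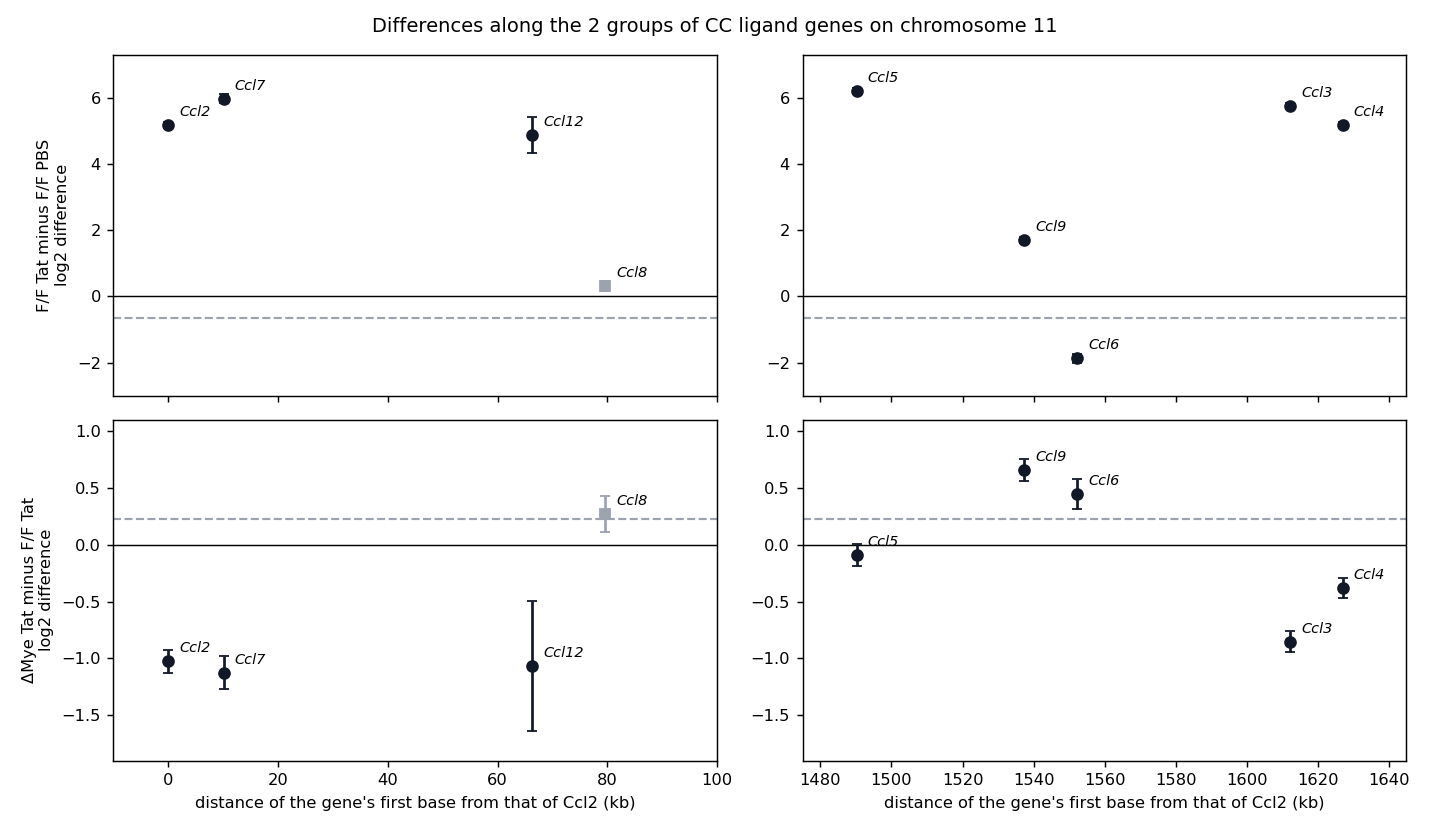
Log2 differences (limma, bars are 95% confidence intervals) of the 8 ligands on chromosome 11 and of Ccl8 (grey square), for F/F Tat minus F/F PBS (top) and ΔMye Tat minus F/F Tat (bottom), with the dashed line at the median of all tested genes. Each gene is plotted at the distance in kb of its lowest coordinate from that of Ccl2. The axis calls this the first base, but for Ccl3, Ccl5, Ccl6 and Ccl9, on the minus strand, it is the last. Ccl9 and Ccl6, between Ccl5 and Ccl3, are the ligands of the 10 on this chromosome that lie above 0 in the lower row.

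A ratio of a pair of ligands within a library does not depend on how libraries are scaled, apart from the pseudocount. Of the 45 pairs, 37 differed in ratio between the Tat groups with an adjusted p below 0.05 (exact two-sided permutation tests over all assignments of the libraries, Benjamini-Hochberg over the 45). The pairs are formed from genes chosen with results of these data known, and pairs that share a gene are not independent. No such count was made over pairs of other tested genes. Taken singly, 38.8% of tested genes were higher and 8.87% lower between the Tat groups by adjusted p (limma). Whether 37 of 45 exceeds what other genes would give was therefore not tested, and the p-values only describe these pairs. The smallest p these groups allow is 0.00216, or 0.00325 adjusted. The largest difference was in the ratio of Ccl7 to Ccl9, which differed by -1.78 on the log2 scale (ΔMye Tat minus F/F Tat, SE 0.03, adjusted p = 0.00325, exact permutation). The ratio of Ccl2 to Ccl5 differed by -0.94 (SE 0.04), that of Ccl3 to Ccl5 by -0.76 (SE 0.05) and that of Ccl4 to Ccl5 by -0.29 (SE 0.02), with no overlap for any of the 3. Thus, relative to Ccl5, Ccl3, Ccl4 and Ccl2 were lower in every ΔMye Tat library than in any F/F Tat library. The ratio of Ccl3 to Ccl4, which lie beside each other on opposite strands, differed by -0.47 (SE 0.03).

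The ratios among the CCR2 ligands moved little. That of Ccl2 to Ccl7 was higher by 0.10 in ΔMye Tat (adjusted p = 0.0258, exact permutation), a call lost without F/F Tat library 7, 9, 10 or 12 or ΔMye Tat library 22 (adjusted p from 0.0504 to 0.0772). That of Ccl2 to Ccl12 differed by 0.04 (adjusted p = 0.708) and that of Ccl7 to Ccl12 by -0.06 (adjusted p = 0.571). The ratio of Ccl2 to Ccl3 differed by -0.17 (adjusted p = 0.00628, exact permutation). The ratio of Ccl6 to Ccl22 differed by -0.04 (adjusted p = 0.503, exact permutation) and that of Ccl9 to Ccl22 by 0.17 (adjusted p = 0.0574), and neither passed. The other 4 pairs that did not pass were Ccl12 with Ccl3 and Ccl24 with Ccl4, Ccl5 and Ccl6.

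**Figure D4:**
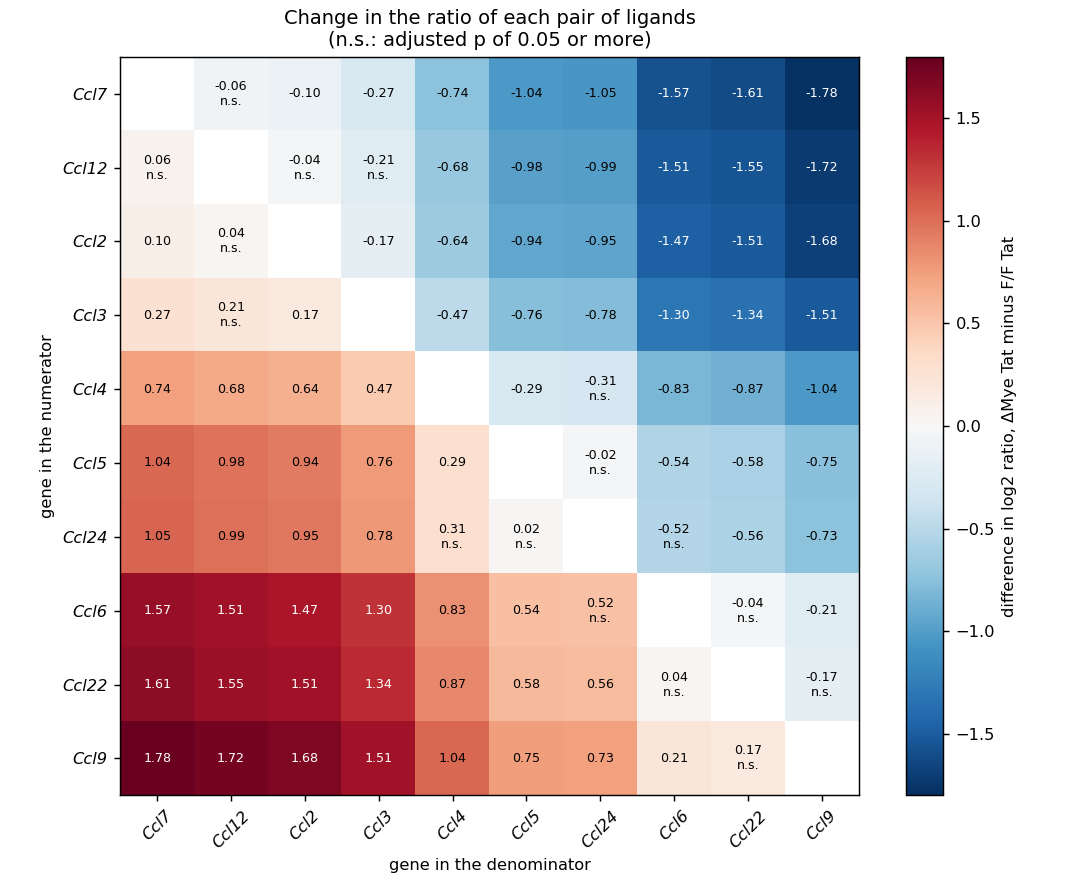
Difference in the log2 ratio of each pair of ligands between ΔMye Tat and F/F Tat, with the gene in the numerator in rows, the gene in the denominator in columns and n.s. where the adjusted p of the exact permutation test was 0.05 or more. The corner blocks, which set Ccl7, Ccl12, Ccl2 and Ccl3 against Ccl6, Ccl22 and Ccl9, hold the largest differences, with -1.78 for Ccl7 over Ccl9.

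Summed over the 10 ligands, transcripts amounted to 2044 ± 150.2 TPM in F/F PBS (SD, n = 6), 55500.3 ± 1617 TPM in F/F Tat (n = 6) and 39539 ± 1216 TPM in ΔMye Tat (n = 5). These sums were 0.229%, 6.15% and 4.41% of the listed TPM of a library on average. The sum in F/F Tat was 27.2 times that in F/F PBS, and the sum in ΔMye Tat was 0.712 of that in F/F Tat. The ranges, 1897 to 2217, 54056 to 57795 and 37768 to 41055 TPM, did not overlap. No p is given for these sums, since the 10 genes were chosen with results of these libraries known.

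The make-up of that sum differed between the groups. In F/F PBS, Ccl6 held 38.8% of it, Ccl5 14.4%, Ccl3 13.4%, Ccl2 13.2% and Ccl9 11.1%. In F/F Tat, Ccl6 held 0.389%, while Ccl5 held 38.6%, Ccl3 26.7%, Ccl2 17.4%, Ccl7 9.77% and Ccl4 5.46%. In ΔMye Tat, the share of Ccl5 was 50.8%, that of Ccl3 20.7%, that of Ccl2 12.0% and that of Ccl7 6.29%. The share of Ccl9 was 1.33% in F/F Tat, against 2.96% in ΔMye Tat. Ccl5 was thus the ligand with the largest share in both Tat groups, and Ccl6 in F/F PBS.

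**Figure D5:**
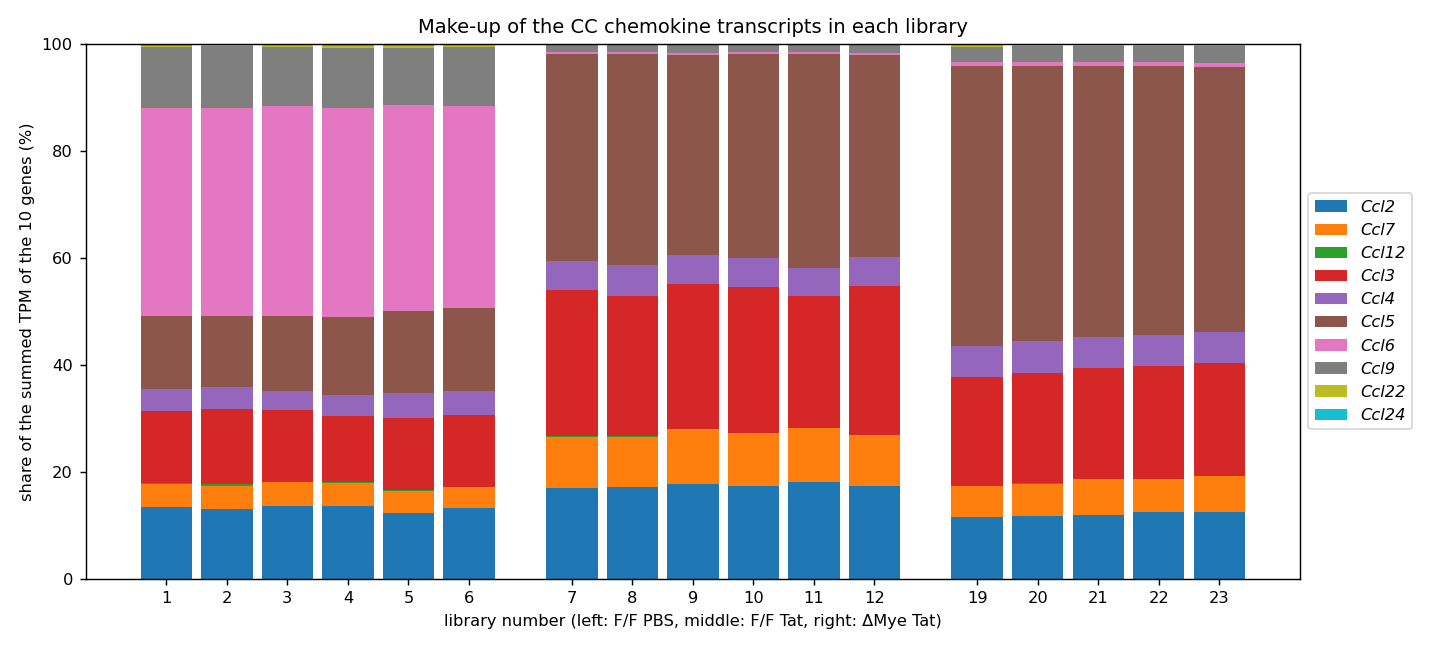
Share of the summed TPM of the 10 ligands (percent, stacked bars from 0 to 100) held by each ligand in each library, with F/F PBS on the left, F/F Tat in the middle and ΔMye Tat on the right. Within a group the bars are alike, and Ccl6 gives way to Ccl5, Ccl3, Ccl2 and Ccl7 in the Tat groups.

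In order of mean TPM, F/F PBS PMs had Ccl6 first, with no overlap with the next. Ccl5, Ccl3, Ccl2 and Ccl9 followed with overlapping neighbours, then Ccl7 and Ccl4, which overlapped, and last Ccl24, Ccl22 and Ccl12, which also overlapped. In F/F Tat the order was Ccl5, Ccl3, Ccl2, Ccl7, Ccl4, Ccl9, Ccl6, Ccl22, Ccl12 and Ccl24, and no neighbours overlapped. The order of the means was the same in ΔMye Tat, where Ccl7 and Ccl4 overlapped. Among the 21683 rows, Ccl5 ranked 409 by mean TPM in F/F PBS, 2 with Tat and 3 with Tat in ΔMye PMs. Ccl3 ranked 435, 4 and 6, and Ccl2 ranked 443, 7 and 19. Ccl6 went the other way, from rank 160 in F/F PBS to 616 in F/F Tat, and stood at 484 in ΔMye Tat.

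Of 14 other mouse CC ligands, 4 reached the level needed for a test. With Tat, Ccl8 and Ccl17 were higher by adjusted p and Ccl25 lower, where 17% of tested genes were higher and 67.6% lower. Of these ligands only Ccl17 passed the fold threshold, a bar that 5.21% of tested genes met as higher. Ccl17, which shares the receptor CCR4 with Ccl22 and lies near it on chromosome 8 (chr8:94810453-94812036, plus), averaged 0.334, 10.5 and 22.1 TPM in the 3 groups. Its log2 difference was 4.76 with Tat (adjusted p = 1.48e-10, limma) and 1.09 between the Tat groups (adjusted p = 0.0163), which missed the threshold of 0.01. Ccl17 entered the test through Tat libraries alone, as no F/F PBS library was above 0.506 TPM. Its call with Tat is therefore not counted as support. Ccl25, a thymic and gut ligand, averaged 3.02, 1.43 and 1.52 TPM, with a log2 difference of -1.06 with Tat (adjusted p = 0.00757, limma) that did not pass after scaling (-0.47, adjusted p = 0.227). Ccl27a, known from skin, did not pass in either comparison. Between the Tat groups, Ccl8 was the 1 of the 4 that passed by adjusted p, as higher, where 38.8% of tested genes were higher and 8.87% lower. After median-ratio scaling Ccl8 did not pass (adjusted p = 0.581, limma).

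Of 14 CC and atypical receptors, 5 were tested, and with Tat 2 rose and 1 fell by adjusted p, where 17% of tested genes were higher and 67.6% lower. After median-ratio scaling, 3 were higher and 1 lower. Ccr2, the receptor of Ccl2, Ccl7 and Ccl12, fell from 6.24 to 1.16 TPM on average (log2 difference -2.35, adjusted p = 1.58e-11, limma) and was at 1.33 TPM in ΔMye Tat, where the difference from F/F Tat did not pass (0.20, adjusted p = 0.279). Ccr1, a receptor of Ccl6 and Ccl9 among others, averaged 73.6, 68.0 and 69.9 TPM. Its log2 difference with Tat was -0.11 on the deposited values (adjusted p = 0.0160, limma). After scaling the difference was 0.52, where Ccr1 passed as higher (adjusted p = 2.82e-08, limma).

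Ccrl2, an atypical receptor that binds chemerin, rose from 261.7 to 2203 TPM with Tat (log2 difference 3.07, adjusted p = 5.21e-25, limma) and was lower in ΔMye Tat, at 1582 TPM (-0.48, adjusted p = 8.00e-11). Ccr7, which guides dendritic cells and lymphocytes to lymph nodes, rose from 9.01 to 42.3 TPM (2.30, adjusted p = 8.03e-11, limma) and was at 23.4 TPM in ΔMye Tat (-0.85, adjusted p = 3.26e-04). Ccr3, the receptor of Ccl24, averaged 0.960, 0.953 and 0.347 TPM. It entered the test through F/F libraries alone, as no ΔMye Tat library was above 0.410 TPM, so its lower call there is not counted as support. Of the eosinophil markers, Epx and Prg2 averaged under 0.1 TPM in all 3 groups, and Siglecf averaged 0.769, 0.550 and 0.727 TPM. Ccr4, the receptor of Ccl22, did not reach the level for a test. Leaving Ccr3 aside, Ccr7 and Ccrl2 were lower between the Tat groups by adjusted p, while Ccr1 and Ccr2 did not pass. Of all tested genes, 8.87% were lower and 38.8% higher.

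The tested genes most like each ligand were found by Pearson's r of log2(TPM + 0.1) over the 17 libraries, as a description to which the 3 group levels contribute most. Nearest to Ccl2 were Cxcl10 (r = 0.9997), a CXC chemokine that attracts T cells, Il1rn, which encodes the IL-1 receptor antagonist, and Il6. Cxcl10 was also nearest to Ccl7, at 21.4, 5369 and 1798 TPM on average in the 3 groups in that order, ahead of Phf11d and Car13. Ccrl2 was nearest to Ccl3, followed by Ifi211 and Il6. Nearest to Ccl4 were Ptgs2, which encodes cyclooxygenase-2, Il1a and Igtp. Nearest to Ccl5 was Il1b (r = 0.9997), at 50.1, 8208 and 7278 TPM, and then Socs3, an inhibitor of cytokine signalling, and Adora2b, an adenosine receptor.

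The ligands that were higher in ΔMye Tat had other neighbours. Nearest to Ccl9 were Tpm4, a tropomyosin, H2-Q7, a class Ib histocompatibility gene at 193.7, 603.6 and 883 TPM, and Fcgr2b, the inhibitory Fc receptor (r = 0.996 for each of the 3). Nearest to Ccl22 were Ehd1 (r = 0.998), Cd38, an NAD-consuming ectoenzyme, and Acp5, the tartrate-resistant acid phosphatase, at 173.5, 665.1 and 803 TPM. Nearest to Ccl6 were Cbx3 (r = 0.994), Atp6v0c, a subunit of the vacuolar proton pump, and Atp13a2, a lysosomal transporter, which averaged 87.6, 5.08 and 10.6 TPM. Ccl12 was most like Naa25 (r = 0.987), Cd69 and Rnf114. Ccl24 had no close match, with Zscan21, Sfswap and Ccnl1 at r of 0.694 or less.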

How the data were processed

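RNA-Seq of thioglycollate-elicited peritoneal macrophages was analysed in 17 libraries grouped by the sample labels. Salmon, run by the authors with the Ensembl annotation of GRCm38, gave the deposited TPM, listed by gene symbol, with no stated scaling between libraries. The authors' edgeR comparison with TMM was not repeated. Of 21683 rows, 26 had a symbol turned into a date and 2 repeated a symbol, none of them a gene named here. TPM hold no read counts, so depth and counting error are unknown, and p-values rest on the spread between libraries. Columns of sample values left unused numbered 0.

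The 10451 rows that reached 1 TPM in 5 or more libraries entered a limma fit (version 3.58.1, R 4.3.3, eBayes with trend) of log2(TPM + 0.1) over all 3 groups, which left 14 residual degrees of freedom. Log2 differences are on that scale, which understates changes of low values such as those of Ccl12, and adjusted p-values are by Benjamini-Hochberg over all tested rows. Calls needed a fold change above 3 besides an adjusted p below 0.01. Folds printed as such are ratios of mean TPM. Ratios of ligands were compared by exact two-sided permutation of the mean difference. The fit was checked on simulated data. Some results of the planned lists, and a background mutation that all 3 groups shared, are not reported here. Promoters were searched for the NF-κB consensus and TATAAA.

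The 10 ligands, the lists of other ligands, receptors and cell markers, and the tests were chosen with earlier results of these data known. Named genes were all 10 ligands, the other listed ligands and receptors that were tested, and for each ligand the 3 genes of highest Pearson's r. Alternatives tried were scaling by median ratios or by quantiles, other pseudocounts (0.5 and 1), a minimum of 5 TPM or none, fitting the compared groups by themselves, array weights with robust eBayes, the exact Wilcoxon test, and leaving out 1 library at a time. A fit without F/F PBS libraries 3 and 4 was chosen after seeing the data. Other steps ran in Python 3.11.15 with scipy 1.17.1, pandas 2.3.3, numpy 2.4.6 and matplotlib 3.10.9.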

Additional observations from a re-analysis of the deposited data

Results flagged for a closer look

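Among 60 sets of libraries of a gene in a group of 4 to 10, 2 held a library far from the others by Dixon's criterion, which chance meets about 1 time in 20. Ccl12 was at 45.5 TPM in ΔMye Tat library 21, where the next was at 37.4 TPM and the lowest at 34.4 TPM (gap over range 0.731). Ccl27a was at 4.12 TPM in F/F PBS library 4, where the next was at 2.36 TPM and the lowest at 1.38 TPM (gap over range 0.640).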

How the results depend on the processing

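The 10 ligands kept their direction and their side of the threshold under pseudocounts of 0.5 and 1, a filter at 5 TPM, a fit of only the groups compared, robust eBayes with array weights and the fit without F/F PBS libraries 3 and 4, which was chosen after seeing the data. With median-ratio scaling, the count of ligands called lower with Tat was 0, since Ccl6 was under 3-fold. With quantile normalization, the count called lower in ΔMye Tat against F/F PBS was 1, again Ccl6. With the exact Wilcoxon test, 0 ligands were higher and 0 lower between the Tat groups by adjusted p, as the 8 that did not overlap came to 0.0118. Each of these 8 had the smallest unadjusted p that the group sizes allow, so this test says nothing of their stability. With no filter, Ccl12 (adjusted p = 0.0149, limma) and Ccl22 (0.0101) did not pass between the Tat groups, nor did Ccl22 with quantile normalization (0.0264), whereas Ccl5 passed there as lower (-0.51). The sign of Ccl24 turned with Tat (0.50 with median-ratio scaling and 0.74 with quantile normalization, the second with an adjusted p of 0.00171, limma) and against F/F PBS in ΔMye Tat (0.21 and 0.43). With each library left out, Ccl24 between the Tat groups ran from -0.23 to 0.048, the ratio of Ccl2 to Ccl12 from -0.0044 to 0.11 and that of Ccl5 to Ccl24 from -0.14 to 0.13, none of which passed. The count of ratios that passed ran from 33 to 39. The cause of these changes was not tested. No paired analysis was possible because the groups share no replicate numbers. How far depth limits the low values of Ccl12, Ccl22 and Ccl24 cannot be given from TPM.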
